A study of Mus musculus with 12 samples.

Results

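Fibronectin and Geltrex™ coatings shifted the transcriptome of differentiating C2C12GFP cells in the same direction in 1102 genes, of which 422 were higher and 680 were lower than in both the control and the Collagen I groups. Of 191 cell cycle genes tested, 107 were in this response and all of these were higher, led by genes of mitosis and DNA replication, beside 2.91% higher over all genes tested. Of 215 muscle program genes tested, 81 were lower and 1 was higher, beside 4.69% lower over all genes, and the lower ones included myogenin, 8 myosin heavy chains, troponins, and sarcomeric actins. These genes were chosen by their values in these same 12 samples, from the 14499 of 55536 genes in the table with enough counts to be tested. A gene was included when the mean of the fibronectin and Geltrex™ groups was at least 2-fold above or below the mean of the control and Collagen I groups at an adjusted p up to 0.05, and when the fibronectin and Geltrex™ means both lay above, or both lay below, the means of the control and of Collagen I. The levels in this contrast are therefore given as a description, without a test.

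The RNA came from C2C12GFP cells, a single mouse myoblast line that carries green fluorescent protein, cultured to form myotubes on uncoated plates (control), on a Collagen I coating, on fibronectin, or on Geltrex™, with 3 samples in each of the 4 groups. Collagen I is the fibrillar collagen of connective tissue, fibronectin is an adhesive glycoprotein, and Geltrex™ is a basement membrane extract that contains laminin and collagen IV and was of a reduced growth factor grade. All groups share the cell line and the differentiation protocol, and the day on which RNA was taken is not given in the sources used here. Nothing in the labels says whether the 3 samples of a group were separate cultures, so p-values measure the spread between these samples, which may be technical.

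Myoblasts divide until mitogens are withdrawn, then leave the cell cycle, switch on myogenin and MEF2C, fuse, and build sarcomeres. Cell cycle exit depends on the RB family of pocket proteins, which together with E2F factors and the DREAM complex silence the genes of S phase and mitosis through E2F, CHR, and CCAAT elements in their promoters. Sarcomere genes are activated by MYOD and myogenin at E-boxes, together with MEF2, SRF, and TEAD factors.

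Total counts lay between 22520404 and 27351766 per library. The first principal component of log2 CPM (CPM, a count as a share of all counts of its library, scaled by TMM) held 44.9% of the variance and separated the 6 fibronectin and Geltrex™ libraries from the other 6, and the second held 20.7% and separated fibronectin from Geltrex™. The Geltrex™ libraries stood apart in how little they differed from each other, with a median SD of 0.0802 in log2 CPM over genes against 0.158 to 0.163 in the other groups. Reads on the mitochondrial genome made up 4.56% to 6.21% in the fibronectin and Geltrex™ libraries and 5.14% to 11.5% in the others, the highest being Collagen I replicate 3. All 12 skeletal muscle markers were measured, 10 of them were among the lower genes, and their summed level was 3963 to 4488 CPM on fibronectin and 5545 to 5999 CPM on Geltrex™, against 11340 to 13100 CPM in the control and on Collagen I. In bulk RNA, fewer cells of a type and less RNA per cell cannot be told apart. Of the markers of other cells, 1 of 7 for endothelium, 2 of 8 for leukocytes, and 1 of 6 for epithelium passed the filter on low counts, and *Tie1*, *Erg*, *Adgre1*, *Tyrobp*, *Epcam*, *Krt8*, and *Krt5* were at 0 in all libraries. Others of these lists had counts, with a highest count of 306 for *Cd14*, 89 for *Tek*, 68 for *Krt14*, 35 for *Cd68*, and 8 for *Pecam1*. Of 9 fibroblast markers, 7 passed the filter and *Thy1* was at 0. Their sum was 2664 to 3141 CPM in the control, 2762 to 2950 on Collagen I, 2155 to 2570 on fibronectin, and 1942 to 2018 on Geltrex™. Of 8 neuron and glia markers, 3 passed and *Rbfox3* was at 0, and their sum was 19.4 to 36.3 CPM in the control and on Collagen I, 47.2 to 59.1 on fibronectin, and 30.6 to 32.6 on Geltrex™. The part of these cells in the result was not tested.

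The contrast of both coatings with both reference groups called 7.92% of all genes tested (1148 genes, 3.15% higher and 4.77% lower), and the genes on the same side of both reference groups were 7.60% (2.91% higher and 4.69% lower). The other 46 called genes had at least 1 coating that did not lie on that side of both reference groups. With no threshold, 59.4% of the genes tested had both means on the same side. The 6 fibronectin and Geltrex™ libraries did not overlap the other 6 in 717 of the 1102 genes (320 higher and 397 lower), against 20.2% of all genes tested (10.9% and 9.34%), and 656 of the 1102 (299 and 357) were also past an adjusted p of 0.05 in each of the 4 pairwise comparisons of a coating with a reference group, against 14.2% (7.56% and 6.60%). These shares follow from the choice of the genes. The median log2 fold change was 1.36 in the higher and −1.46 in the lower genes, and 41 and 125 of them changed by at least 4-fold in these directions. Just inside the threshold lay *Camk1d* (1.0004) and *Htr1b* (1.0001) on the higher side and *Rnf128* (−1.0027) and *Gm19426* (−1.0019) on the lower side. Just outside it lay *Slc44a5* (0.9996), *Psme2b* (0.9982), *Grtp1* (−0.9978), and *Pde4dip* (−0.9987). Values after ± are standard errors of the log2 fold change from the fit of all 12 libraries.

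**Figure D1:**
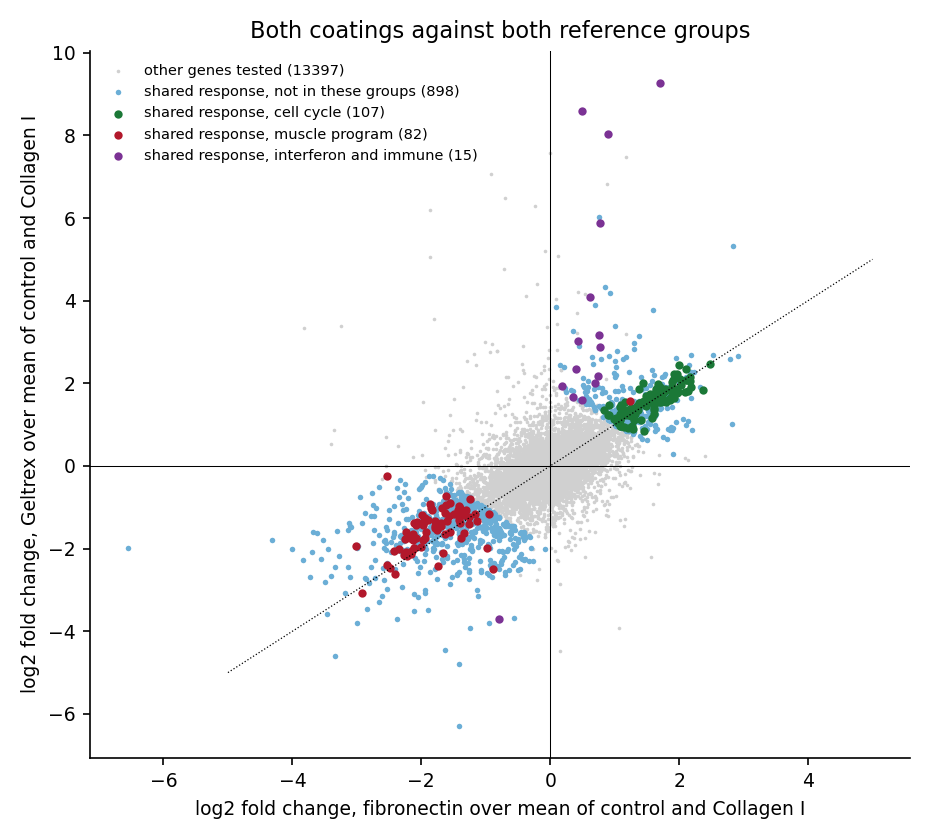
Each point is a gene, with its log2 fold change on fibronectin (horizontal) and on Geltrex™ (vertical) against the mean of the control and Collagen I, and the dotted line marks equal changes. Cell cycle genes lie close to that line at the upper right, most muscle genes lie at the lower left a little above it, and a column of interferon and immune genes is high on Geltrex™ with much smaller values on fibronectin.

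Genes of mitosis formed the largest block of higher genes. Of the 74 mitosis, spindle, and kinetochore genes tested, 69 were in the shared response, 70 were past the threshold in all 4 pairwise comparisons, and the median log2 fold change of the list was 1.62, against −0.02 over all genes tested. *Mki67*, the proliferation antigen that coats mitotic chromosomes (chr7:135689784-135716361, GRCm38), is an example. *Mki67* was at 47.4, 53.9 and 68.3 CPM in the control, 41.7, 39.7 and 41 CPM on Collagen I, 159, 254 and 168 CPM on fibronectin, and 186, 208 and 222 CPM on Geltrex™. All 6 coated libraries lay above the highest reference library, with a log2 fold change of 2.05 ± 0.11. *Bub1*, a kinase of the spindle checkpoint, was at 6.56 to 9.26 CPM in the 6 reference libraries and at 29.1 to 40.5 CPM in the 6 coated ones (2.09 ± 0.10). *Kif4*, a chromosome-bound kinesin, had 5.46 to 8.15 against 25.8 to 33.8 CPM (2.16 ± 0.09), and 15.1% of its exonic bases overlap *Pdzd11* on the other strand. *Knl1*, a scaffold of the outer kinetochore, had 5.18 to 9.36 against 24.4 to 46.5 CPM (2.11 ± 0.10), and *Mybl2*, the B-MYB factor that activates G2 and M phase genes, had 0.467 to 1.43 against 3.68 to 5.55 CPM (2.23 ± 0.20). The libraries of the groups did not overlap in any of these genes. The 5 listed genes that were left out, named here after their values were seen, were *Cenpk*, *Bora*, *Smc4*, *Cdc25b*, and *Bub3*, with log2 fold changes of 0.96, 0.51, 0.50, 0.42, and 0.11.

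Among the 48 DNA replication genes, 15 were in the shared response, and the median of the list was 0.73. They included the replication origin factors *Cdc6* (2.23 ± 0.18) and *Mcm10* (2.07 ± 0.17), the helicase subunits *Mcm2* to *Mcm5*, the DNA polymerases *Pole* and *Pola1*, and *Tk1*, a thymidine kinase of S phase. *Mcm5* was at 7.68, 9.17 and 9.38 CPM in the control, 6.15, 4.87 and 6.6 CPM on Collagen I, 19.7, 23.2 and 27.3 CPM on fibronectin, and 26.4, 29.7 and 25 CPM on Geltrex™. The lowest coated library of *Mcm5* was above the highest reference library by more than 2-fold, and the Collagen I libraries were the lowest of the 12. Of the 35 genes of homologous recombination and Fanconi repair, 17 were higher. *Brip1* was at 2.31, 3.92 and 3.69 CPM in the control, 1.73, 1.56 and 2.2 CPM on Collagen I, 9.47, 14.2 and 9.63 CPM on fibronectin, and 10.1, 10.8 and 10.1 CPM on Geltrex™. This helicase partner of BRCA1 had a log2 fold change of 2.12 ± 0.15, *Brca1* itself had 1.96 ± 0.13, *Exo1*, a DNA end-resecting nuclease, had 2.10 ± 0.13, and *Fancd2*, the central protein of the Fanconi pathway, had 2.09 ± 0.12.

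Of the 10 E2F family genes, only *E2f7* passed both thresholds. *E2f7* was at 3.66, 3.27 and 4.5 CPM in the control, 2.38, 2.15 and 2.07 CPM on Collagen I, 13, 19.7 and 15.7 CPM on fibronectin, and 15.9, 16.6 and 16 CPM on Geltrex™. *E2f7* encodes an atypical E2F that represses E2F targets in late S phase, and it had the largest increase of the protein-coding genes with non-overlapping libraries and a mean of at least 1 CPM (2.48 ± 0.12). Its closest relative *E2f8* was at 0.35 ± 0.08, the activators *E2f1*, *E2f2*, and *E2f3* were at 0.24 ± 0.10, 0.19 ± 0.13, and 0.04 ± 0.07, and the repressor *E2f6* was at −0.33 ± 0.06. Among 24 genes of cell cycle exit tested, *Ccnd1*, *Ccnd2*, and *Cdk6*, the cyclins and kinase that inactivate pocket proteins, *Ccne1*, the cyclin of the G1 to S transition, and the pocket protein gene *Rbl1* were in the shared response. None passed the fold threshold on the lower side, where the lowest log2 fold change was −0.95. Libraries did not overlap in 9 of the 24 on the higher and 3 on the lower side, against 10.9% and 9.34% of all genes. In all 4 pairwise comparisons 7 were higher and 2 lower, against 7.56% and 6.60%. *Ccnd1* was at 16.6, 17.6 and 14.1 CPM in the control, 15.3, 14.8 and 17.6 CPM on Collagen I, 42.5, 46.7 and 41.8 CPM on fibronectin, and 67.7, 61.8 and 63.4 CPM on Geltrex™. *Ccnd1* was thus higher on Geltrex™ than on fibronectin in every library, and 23.4% of its exonic bases overlap *LTO1* on the other strand. *Rbl1* (p107) was at 12.2 to 17.4 against 30.8 to 37 CPM (1.10 ± 0.09).

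The promoters of 3 of these genes are shown because they tied for the most matches to cell cycle motifs (5 each) among the named cell cycle genes. They run from 250 bases before to 50 bases after the RefSeq start (GRCm38.p6), 5′ to 3′ along the gene. Capitals mark matches on either strand to the CCAAT box (CCAAT, or ATTGG on the other strand), to CHR (TTTGAA), and to 2 forms of the E2F site (TTTCGCG and GCGCGAA, which can overlap).
Mki67 (chr7:135716330-135716629, minus strand): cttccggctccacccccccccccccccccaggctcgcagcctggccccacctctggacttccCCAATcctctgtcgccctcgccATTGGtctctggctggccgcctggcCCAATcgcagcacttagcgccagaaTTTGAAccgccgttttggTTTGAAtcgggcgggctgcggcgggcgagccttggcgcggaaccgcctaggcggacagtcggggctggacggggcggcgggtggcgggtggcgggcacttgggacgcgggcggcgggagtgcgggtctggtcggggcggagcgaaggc
Mcm5 (chr8:75109259-75109558, plus strand): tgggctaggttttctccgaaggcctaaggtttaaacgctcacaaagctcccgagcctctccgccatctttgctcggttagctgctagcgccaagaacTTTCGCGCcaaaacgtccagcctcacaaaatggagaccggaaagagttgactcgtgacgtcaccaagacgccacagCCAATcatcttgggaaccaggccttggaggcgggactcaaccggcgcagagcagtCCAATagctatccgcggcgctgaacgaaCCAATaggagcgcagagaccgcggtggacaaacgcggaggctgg
Brip1 (chr11:86201144-86201443, minus strand): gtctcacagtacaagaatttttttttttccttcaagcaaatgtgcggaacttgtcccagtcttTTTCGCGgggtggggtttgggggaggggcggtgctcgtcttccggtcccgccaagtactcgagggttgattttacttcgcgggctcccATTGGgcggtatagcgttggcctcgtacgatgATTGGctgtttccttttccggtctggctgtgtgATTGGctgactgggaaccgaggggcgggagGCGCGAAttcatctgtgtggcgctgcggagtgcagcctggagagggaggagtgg
*Mki67* held 3 CCAAT boxes followed by 2 CHR elements. *Mcm5* and *Brip1* each held 3 CCAAT boxes and both E2F forms, which overlap in *Mcm5*.

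**Figure D2:**
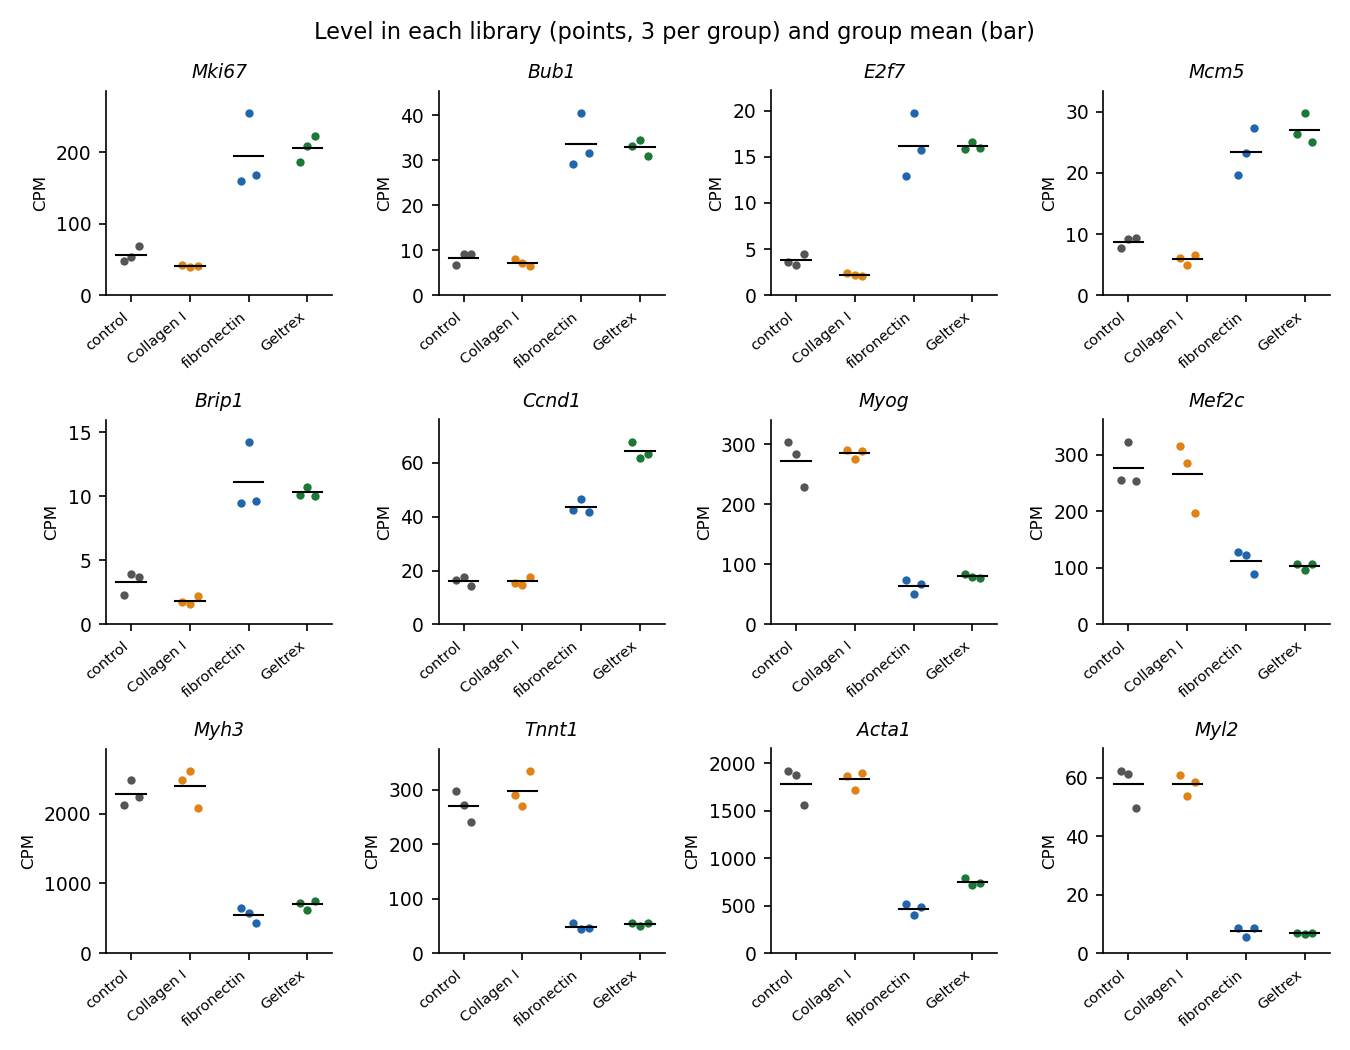
CPM in each of the 12 libraries (points) and the group mean (bar) for 6 higher and 6 lower genes, on linear axes from 0. In all 12 genes the fibronectin and Geltrex™ libraries lie apart from the control and Collagen I libraries, and in *Ccnd1*, *Myog*, and *Acta1* the fibronectin and Geltrex™ libraries also lie apart from each other.

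The muscle program was lower, but unevenly along the myogenic cascade. Of 26 satellite cell and myogenic factor genes tested, only *Myog* and *Mef2c* were in the shared response. *Myog* was at 303, 284 and 228 CPM in the control, 289.7, 276 and 289 CPM on Collagen I, 74, 49.9 and 66.9 CPM on fibronectin, and 84.1, 79.5 and 77.7 CPM on Geltrex™. *Myog*, the factor that drives myoblasts into differentiation, was 3.89-fold lower in the coated libraries, with a log2 fold change of −1.96 ± 0.09. *Mef2c* was at 256, 322 and 253 CPM in the control, 315, 285 and 197 CPM on Collagen I, 128, 122 and 88.6 CPM on fibronectin, and 107, 95.9 and 107 CPM on Geltrex™. *Mef2c*, which cooperates with myogenin, did not overlap between the 6 and 6 libraries (−1.33 ± 0.11). The determination factors *Myod1* and *Myf5*, which act upstream of both, had log2 fold changes of only −0.20 ± 0.06 and 0.05 ± 0.07, and their coated libraries overlapped the reference libraries. *Pax7*, the satellite cell factor, was at a mean of 0.375 CPM and had −0.19 ± 0.36, and *Mef2a* and *Mef2d* had 0.18 ± 0.08 and −0.20 ± 0.07.

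Of 9 myosin heavy chain genes tested, 8 were lower, and the median log2 fold change of the list was −1.64. *Myh3* was at 2128, 2483 and 2237 CPM in the control, 2477, 2606 and 2085 CPM on Collagen I, 656, 572 and 434 CPM on fibronectin, and 727, 621 and 749.9 CPM on Geltrex™. *Myh3* encodes the embryonic heavy chain (log2 fold change −1.91 ± 0.10), and *Myh8*, the perinatal chain, changed similarly (−1.92 ± 0.12). The slow and cardiac chains *Myh7* (−1.64 ± 0.12), *Myh6* (−2.05 ± 0.21), and *Myh7b* (−2.47 ± 0.19) were lower, and so were the fast chains of adult fibers, *Myh2* (−1.16 ± 0.10), *Myh1* (−1.39 ± 0.08), and *Myh4* (−1.48 ± 0.13). The levels did not overlap between the 6 and 6 libraries in these 8 genes. *Myh13*, the chain of extraocular muscle, had −0.17 ± 0.36 at a mean of 0.384 CPM. Myosin heavy chains are close paralogs, and the treatment of reads that map to several genes is not given in the sources used here, so the split between them is uncertain.

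Troponins, tropomyosins, sarcomeric actins, and other thin filament genes gave 16 lower genes of 23 tested (median −1.58). *Tnnt1* was at 298, 272 and 241 CPM in the control, 289.6, 269.7 and 334 CPM on Collagen I, 56.1, 43.7 and 47.1 CPM on fibronectin, and 54.6, 50.8 and 56.1 CPM on Geltrex™. *Tnnt1*, the slow skeletal troponin T, was 5.52-fold lower (−2.47 ± 0.08), and its fast counterpart *Tnnt3* had −1.96 ± 0.06. The slow troponins *Tnni1* and *Tnnc1* had −1.58 ± 0.08 and −1.77 ± 0.06, and the fast *Tnni2* had −1.89 ± 0.07. *Acta1* was at 1918, 1876 and 1560 CPM in the control, 1870, 1723 and 1904 CPM on Collagen I, 519, 402 and 485 CPM on fibronectin, and 795, 716 and 739 CPM on Geltrex™. *Acta1* is the adult skeletal α-actin (−1.61 ± 0.08), and *Actc1*, the cardiac α-actin of embryonic muscle, was at 83.6 to 160.0 CPM in the reference libraries and 12.4 to 33.7 CPM in the coated ones (−2.48 ± 0.10). The members left out included the actin and tropomyosins that other cells also use, with log2 fold changes of −0.20 ± 0.06 for *Acta2*, −0.36 ± 0.05 for *Tpm1*, −0.02 ± 0.07 for *Tpm3*, and 0.87 ± 0.06 for *Tpm4*, the last with coated libraries above all reference libraries.

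*Myl2*, the regulatory light chain of slow and cardiac muscle, had one of the largest decreases. *Myl2* was at 62.3, 61.2 and 49.8 CPM in the control, 61, 53.9 and 58.7 CPM on Collagen I, 8.77, 5.48 and 8.62 CPM on fibronectin, and 7.05, 6.47 and 7.03 CPM on Geltrex™. It was 7.99-fold lower (−3.00 ± 0.10), and 5 of the 13 myosin light chains tested were lower, among them the fast chains *Mylpf* (−1.22 ± 0.06) and *Myl1* (−1.46 ± 0.07) and the embryonic *Myl4* (−1.61 ± 0.08). Of 16 genes of titin, the M-band, and myosin-binding proteins, 13 were lower, and *Trim63*, the MuRF1 ubiquitin ligase of the M-band, led them (23.8 to 33.5 against 4.42 to 6.24 CPM, −2.52 ± 0.10). Of 23 Z-disc genes, 9 were lower, with *Actn2*, the α-actinin of the Z-disc, at −2.20 ± 0.14 and *Tcap*, the titin cap, at −2.10 ± 0.20. Of 25 genes of the triad and calcium release, 14 were lower. *Casq1* and *Casq2*, the calcium stores of fast and slow or cardiac muscle, had −2.18 ± 0.18 and −1.46 ± 0.08, *Trdn* (triadin) had −1.76 ± 0.08, and *Atp2a1*, the SERCA1 calcium pump, had −1.59 ± 0.09, with 21.9% of its exonic bases overlapping *Rabep2* on the other strand. Calcium and calcineurin signaling showed 2 lower genes of 23, beside 4.69% over all genes tested, and the median of the list was 0.16. The 2 were the kinases *Camk2a* (−1.02 ± 0.10) and *Camk2b* (−1.88 ± 0.14).

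Both muscle fusogens were lower. *Mymk* was at 422, 397 and 303 CPM in the control, 344, 305 and 313 CPM on Collagen I, 102, 76.4 and 89.9 CPM on fibronectin, and 147, 130.4 and 138 CPM on Geltrex™. *Mymk* (myomaker, −1.64 ± 0.09) and *Mymx* (myomixer, −1.32 ± 0.10) are required for myoblast membranes to merge. Of 24 fusion genes, 6 were lower in all, beside 4.69% over all genes tested, and the median of the list was 0.04. At the endplate, *Chrng*, the fetal acetylcholine receptor subunit, had −1.39 ± 0.08, *Colq*, the collagen that anchors acetylcholinesterase, had −1.39 ± 0.13, and the receptor gene *Erbb3* had −1.23 ± 0.11. *Nrg1*, the ligand of ErbB receptors, was the only higher member of the muscle lists, at 11.8 to 17.7 CPM in the reference libraries and 22.8 to 44 CPM in the coated ones (1.41 ± 0.13). In the dystrophin complex, *Dmd* (−2.08 ± 0.24) and *Nos1* (−1.69 ± 0.12) were lower among 18 genes tested, beside 4.69% over all genes.

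The promoters of *Myh4* and *Acta1* are shown in the same way. *Myh4* had the most matches (7) to muscle motifs among the named sarcomere and triad genes, and *Acta1* (4 matches) was added after its sequence was seen, as the skeletal actin. Capitals mark the E-box CAGCTG, the TEAD site (GGAATG, or CATTCC on the other strand), TATAAA, the MEF2 site, and the CArG box bound by SRF.
Myh4 (chr11:67237562-67237861, plus strand): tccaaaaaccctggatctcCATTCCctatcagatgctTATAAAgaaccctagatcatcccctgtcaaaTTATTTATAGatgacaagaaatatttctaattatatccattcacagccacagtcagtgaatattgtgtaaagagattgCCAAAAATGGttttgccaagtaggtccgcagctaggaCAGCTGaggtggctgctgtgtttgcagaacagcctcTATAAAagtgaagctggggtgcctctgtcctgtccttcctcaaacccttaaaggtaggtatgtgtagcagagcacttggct
Acta1 (chr8:123894726-123895025, minus strand): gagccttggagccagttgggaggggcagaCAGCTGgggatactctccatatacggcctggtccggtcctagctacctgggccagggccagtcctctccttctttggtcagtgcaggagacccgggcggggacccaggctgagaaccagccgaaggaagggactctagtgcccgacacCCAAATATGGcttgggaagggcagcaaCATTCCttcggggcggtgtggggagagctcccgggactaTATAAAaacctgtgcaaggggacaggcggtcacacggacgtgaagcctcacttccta
*Myh4* held 1 MEF2 site, which contains 1 of its 3 TATAAA matches, 1 CArG box, 1 E-box, and 1 TEAD site, and *Acta1* held 1 of each of these motifs except MEF2.

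**Figure D3:**
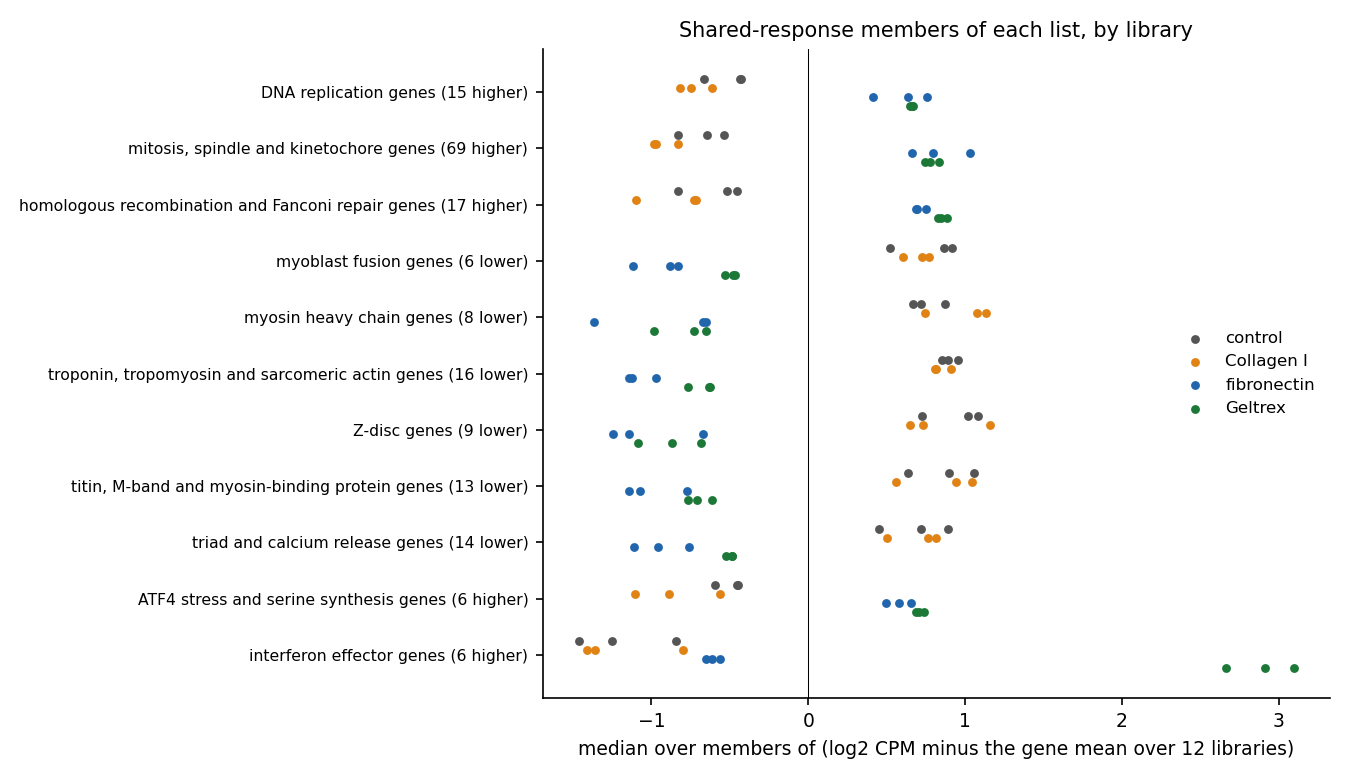
For each list with at least 6 shared-response genes, the point of a library is the median over those genes of log2 CPM minus the gene's mean over the 12 libraries, colored by group. In the cell cycle lists the fibronectin libraries (0.41 to 1.03) and Geltrex™ libraries (0.65 to 0.89) fall in the same range, in the muscle lists most fibronectin points lie below those of Geltrex™, and in the interferon list fibronectin lies at −0.65 to −0.56, the reference groups at −1.46 to −0.80, and Geltrex™ at 2.66 to 3.10. That each coating lies apart from the references follows from the choice of the genes. Over all 33 listed interferon effector genes, the summed level was 181 to 205.5 CPM on fibronectin and 426.2 to 526.7 CPM on Geltrex™. It was 182.6 to 189.4 CPM in the control and 199.9 to 212.3 CPM on Collagen I.

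Of 228 energy metabolism genes tested, 14 were lower and none was higher, beside 4.69% lower and 2.91% higher over all genes tested. *Ckm*, the muscle creatine kinase, was at 25 to 44.2 against 5.02 to 10.4 CPM (−2.04 ± 0.13), and *Mb*, myoglobin, at 76 to 99.4 against 17.7 to 31.2 CPM (−1.99 ± 0.09, 31.9% of its exonic bases overlapping *Gm49540* on the other strand). *Pygm*, the muscle glycogen phosphorylase, had −1.54 ± 0.08, *Pgam2*, the muscle phosphoglycerate mutase, −1.42 ± 0.10, *Fabp3*, the fatty acid carrier of heart and slow muscle, −2.03 ± 0.12, and *Cd36*, a fatty acid transporter, −1.82 ± 0.21. Of the nuclear respiratory genes, *Cox6a2*, *Cox7a1*, and *Cox8b*, the heart and muscle isoforms of cytochrome oxidase subunits, were in the shared response (−1.20 ± 0.15, −1.03 ± 0.28, and −1.55 ± 0.26), *Cox7a1* with a mean of only 0.476 CPM. None of the 36 complex I genes passed the fold threshold, but the list had a median of −0.37. On the lower side, 16 of its genes had non-overlapping libraries, against 9.34% of all genes tested. In all 4 pairwise comparisons 9 of the 36 were lower, against 6.60%. Of the cytosolic ribosomal protein genes (82 tested), the sterol synthesis genes (25), the genes of basement membranes (15), the metalloproteinases and their inhibitors (29), and the Notch pathway (17), none was in the shared response. In all 4 pairwise comparisons, without a fold minimum, 4 metalloproteinase or inhibitor genes were higher, and 3 Notch genes were higher and 2 lower. The shares over all genes were 7.56% higher and 6.60% lower, and the other 3 lists had at most 1 such gene in each direction.

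Cells bind fibronectin, laminin, and collagen through integrins, whose signals pass through focal adhesions. Of 67 genes of matrix contact tested, 2 were higher and 3 lower. Of 96 genes of the matrix made by the cells, 5 were higher and 5 lower. Over all genes tested, the shares were 2.91% higher and 4.69% lower. None of 20 integrin subunits was higher, and 3 were lower. *Itgb1* and *Itga5*, which form a fibronectin receptor, had log2 fold changes of 0.06 ± 0.07 and 0.13 ± 0.06, and *Itgav* had 0.47 ± 0.10. The laminin receptor subunits *Itga6*, *Itga7*, and *Itga3* had 0.09 ± 0.09, −0.47 ± 0.11, and −0.12 ± 0.06. The lower ones were *Itga10*, a collagen receptor subunit, at 42.1 to 57.2 against 11.5 to 22 CPM (−1.63 ± 0.12, 33.5% of its exonic bases overlapping *Gm42957* on the same strand), *Itga8* (−1.41 ± 0.15), and *Itga9* at a mean of 0.389 CPM (−2.31 ± 0.40). *Flna*, filamin A, which links actin to integrins, was 1 of 26 focal adhesion genes to be in the shared response, beside 2.91% over all genes, while 6 of the 26 had non-overlapping libraries on the higher side and 4 were higher in all 4 pairwise comparisons. *Flna* was at 870.1, 1030 and 897 CPM in the control, 954, 877 and 809 CPM on Collagen I, 1891, 1854 and 1969 CPM on fibronectin, and 1871, 1901 and 1899 CPM on Geltrex™. Of 21 fibronectin, matricellular, and elastic fiber genes, 3 were higher, beside 2.91% over all genes. They were *Tnc* (tenascin C, 1.36 ± 0.07), *Thbs1* (thrombospondin 1, 1.10 ± 0.09), and *Loxl2*, a collagen cross-linking enzyme (1.0008). In this list 9 genes had non-overlapping libraries on the higher side, against 10.9% of all genes. In all 4 pairwise comparisons 7 were higher, against 7.56%. Among 31 collagen genes, 2 were higher and 5 lower, beside 2.91% and 4.69% over all genes. *Col18a1*, the source of endostatin, was among the higher ones (1.50 ± 0.10), and *Col13a1* (−2.48 ± 0.74, at a mean of 0.164 CPM), *Col28a1* (−1.61 ± 0.15), *Col15a1* (−1.52 ± 0.26), and *Col11a2* (−1.40 ± 0.22) were among the lower ones.

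Other higher genes fell into smaller groups. Of 24 genes of the ATF4 response and serine synthesis, 6 were higher, beside 2.91% over all genes tested. Among them were *Asns*, asparagine synthetase (1.24 ± 0.07), and *Aldh1l2*, a mitochondrial folate enzyme (1.59 ± 0.12). The largest change of the list was that of the stress factor *Atf3* (1.97 ± 0.09), which overlapped the references on fibronectin. *Bcat1*, the cytosolic branched-chain aminotransferase, had 1.92 ± 0.10, with Geltrex™ libraries only just above those of the control. Besides *E2f7* and other cell cycle genes above, the 10 highest held *Slfn9* (2.44 ± 0.18), the centriole gene *Stil* (2.30 ± 0.15), the kinetochore gene *Kntc1* (2.23 ± 0.09), and the checkpoint adaptor *Clspn* (2.13 ± 0.16). They also held the AP-1 gene *Fosl1* (2.14 ± 0.20, 57.2% of its exonic bases overlapping *Ccdc85b* on the other strand) and the neurofilament gene *Nefl* (2.20 ± 0.13, 32.8% overlapping *Nefm*, likewise). Among the 10 lowest were *Tm6sf1* (−3.20 ± 0.34, 24.2% overlapping *Hdgfl3*), *Padi2*, a protein arginine deiminase (−3.03 ± 0.23), *Ppp1r3a*, a muscle glycogen-targeting subunit (−2.90 ± 0.30), *Atp6v1c2*, a proton pump subunit (−2.80 ± 0.15), the ADP-ribosyltransferase gene *Art5* (−2.79 ± 0.22), *Pstpip1* (−2.72 ± 0.14), and *Fsd2* (−2.53 ± 0.26).

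Whether fibronectin and Geltrex™ differed within the shared response does not depend on the contrast that chose the genes, and it was tested with edgeR's quasi-likelihood test. An adjusted p of at most 0.05 between fibronectin and Geltrex™ was reached by 218 of the 1102 genes, close to the 19.3% of all genes tested, and 116 of them also differed by at least 2-fold, against 3.98%. With Geltrex™ summed into 1 library, the shared response held 1037 genes, of which 72 were called without a fold minimum. The rule bounds how far the coatings can differ within these genes. In the cell cycle genes 8 of 107 were called (7.48%), 5 higher on fibronectin and 3 on Geltrex™, and 55 of the 107 had the higher mean on Geltrex™. *Mki67* differed by −0.08 ± 0.15 on the log2 scale (adjusted p = 0.748) and *Bub1* by 0.04 ± 0.13 (adjusted p = 0.877), fibronectin over Geltrex™. Their fibronectin and Geltrex™ libraries overlapped. With Geltrex™ summed into 1 library, 1 of the 107 was called. *Knl1* was higher on fibronectin (0.53 ± 0.13, adjusted p = 0.00994), a call that was lost with Geltrex™ summed (adjusted p = 0.188), and *Ccnd1* was higher on Geltrex™ (−0.56 ± 0.09, adjusted p = 0.00055, and 0.04 with Geltrex™ summed).

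In the muscle program, the genes that differed were nearly all lowest on fibronectin. Of the 81 lower muscle genes, 27 (33.3%) were higher on Geltrex™ than on fibronectin and 1 the other way, against 9.06% and 10.3% of all genes tested, and 68 of the 81 had the lower mean on fibronectin. *Actc1* differed by −1.08 ± 0.14 (adjusted p = 4.17e-05), *Chrng* by −0.94 ± 0.11 (adjusted p = 2.78e-05), *Atp2a1* by −0.79 ± 0.13 (adjusted p = 0.000387), *Acta1* by −0.68 ± 0.10 (adjusted p = 0.00026), and *Mymk* by −0.63 ± 0.12 (adjusted p = 0.00157). In each of these 5 genes all 3 fibronectin libraries were below all 3 Geltrex™ libraries. An adjusted p of 0.05 was not reached by *Myog* (−0.34 ± 0.12, adjusted p = 0.0706), *Myh3* (−0.34 ± 0.13, adjusted p = 0.088), *Tnnt1* (−0.14 ± 0.11, adjusted p = 0.408), or *Myl2* (0.16 ± 0.16, adjusted p = 0.506). *Nos1* was the exception, with 8.39, 5.69 and 7.65 CPM on fibronectin and 2.22, 2.27 and 2.62 CPM on Geltrex™ (1.62 ± 0.18, adjusted p = 1.28e-05). The Geltrex™ libraries differed little from each other, and with the 3 of them summed into 1 library, 11 of the 81 muscle genes were called (10 higher on Geltrex™, 12.3%), against 2.55% higher on Geltrex™ over all genes, and 66 of the 81 had the lower mean on fibronectin. Of the genes named here as called, *Mymk* was lost with Geltrex™ summed (adjusted p = 0.0635).

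Some genes counted as shared were so almost entirely on Geltrex™. Of the 422 higher genes, 74 were higher on Geltrex™ than on fibronectin and 28 the other way, and 54 and 6 of these differed by at least 2-fold, against 2.26% and 1.72% of all genes tested. With Geltrex™ summed into 1 library, 40 and 5 of the 422 were called. All 14 higher interferon and immune genes were among the 74, 1 of the 14 passed all 4 pairwise comparisons, and 13 were called with Geltrex™ summed. Part of these genes entered the test only through the Geltrex™ libraries, where they are high. With at least 10 counts required in every sample, 13 of the 25 interferon effector genes were tested and 1 was in the shared response in place of 6, and of 28 interferon signaling genes 20 were tested and 2 were shared in place of 5. Of the 25 interferon effector genes tested, 13 passed the thresholds of the contrast but 6 had both coatings on the same side of the references. *C3* was at 0.875, 1.25 and 1.02 CPM in the control, 0.953, 0.409 and 1.17 CPM on Collagen I, 1.11, 1.3 and 1.51 CPM on fibronectin, and 408, 339 and 336 CPM on Geltrex™. *C3*, the central complement component, overlapped the references on fibronectin and differed between the coatings by −8.11 ± 0.18 (adjusted p = 1.18e-13). *Atf3* was at 4.53, 4.7 and 3.82 CPM in the control, 4.85, 3.87 and 5.48 CPM on Collagen I, 4.75, 5.36 and 4.31 CPM on fibronectin, and 68, 64.1 and 64.9 CPM on Geltrex™. This stress-induced factor (−3.77 ± 0.12, adjusted p = 1.32e-11) and *Ccn2*, a target of YAP and TGF-β (113 against 548 CPM, −2.28 ± 0.10, adjusted p = 8.85e-10), likewise overlapped the references on fibronectin. *Oas2*, an antiviral nucleotide synthetase, had at most 2 counts in any fibronectin, control, or Collagen I library and was at 4.49, 5.81 and 7.53 CPM on Geltrex™, at least 47.3-fold higher than a fibronectin library with 3 counts, the floor used here for a count of 0. The opposite case was *Bcat1*, at 43.2, 52.7 and 37.9 CPM on fibronectin and 12.5, 14 and 11.8 CPM on Geltrex™ (1.81 ± 0.13, adjusted p = 7.66e-08). Its Geltrex™ libraries lay only just above those of the control.

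**Figure D4:**
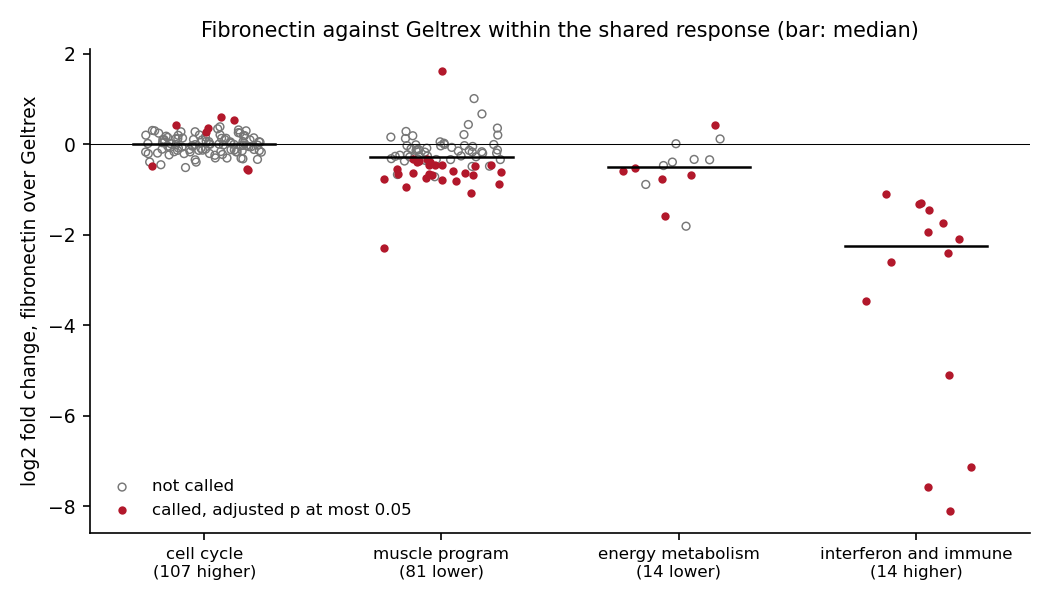
Log2 fold change of fibronectin over Geltrex™ for the shared-response genes of 4 groups, with called genes filled and the median as a bar. Cell cycle genes scatter around 0, muscle and energy genes lie mostly below 0, and all 14 interferon and immune genes lie below 0, of which *Oas2* and *Oas1a* had at most 2 counts in any fibronectin library, so that their fitted position depends on the prior count.

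The control and Collagen I groups, which together formed the reference, differed in few of these genes, but in a larger share than over all genes tested. Of the 1102 genes, 23 (2.09%) were called between them by the same test, against 1.12% of all genes tested. Of the 1102 genes, 17 were lower on Collagen I, against 0.917% of all genes tested, and 6 were higher, against 0.200%. Among the 162 genes called over all genes tested, 133 were lower on Collagen I and 29 higher. The higher genes of the shared response leaned to one side, with a median log2 difference of −0.24 for Collagen I over control. Of them, 74.6% had the lower mean on Collagen I, against 50.7% of all genes tested. Of the 107 cell cycle genes, 95 had the lower mean on Collagen I (median −0.26). None of the 107 passed an adjusted p of 0.05 with edgeR, while 39 had an unadjusted p of at most 0.05, 38 of them lower on Collagen I, and DESeq2 called 15. *Kntc1*, a kinetochore gene of the shared response that is not among the 107, fell by 0.74 on Collagen I with edgeR (adjusted p = 0.0196). *Tnc* fell by 0.59 (adjusted p = 0.00768), and *Bcat1* by 1.64, from 11, 11.4 and 11 CPM to 3.6, 4.09 and 2.98 CPM (adjusted p = 5.57e-05). The slow *Myh7* had 0.44 ± 0.16 (adjusted p = 0.212), the fast *Myh1* was lower on Collagen I (−0.51 ± 0.11, adjusted p = 0.0335), and *Mybpc1*, slow myosin-binding protein C, was higher (0.87 ± 0.20, adjusted p = 0.0443). The 81 lower muscle genes split evenly, 40 with the lower mean on Collagen I. *Frmd6*, a Hippo pathway gene, and the repressor gene *Klf12*, which were higher on both coatings, were higher on Collagen I than in the control (0.54 ± 0.11 and 0.91 ± 0.17, adjusted p = 0.0247 and 0.0141).

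The lower genes held many transcripts that do not code for protein. Protein-coding genes were 62.8% of the 680 lower genes and 86.5% of the 422 higher ones, against 85.9% of all genes tested. Among the tested lincRNAs, 17.7% were lower and 4.23% higher, and among antisense RNAs 11.4% and 2.78%. *Gm28653*, a lincRNA gene that overlaps *Mir133b*, a muscle miRNA, on the same strand, is an example. *Gm28653* was at 59.6, 25.7 and 35.2 CPM in the control, 41, 40.8 and 44.8 CPM on Collagen I, 10.7, 10.1 and 9.01 CPM on fibronectin, and 4.57, 4.45 and 4.73 CPM on Geltrex™. The level of the gene moves with these shares, since 15.4% of genes under 1 CPM were lower and 4.22% higher, against 1.54% and 0.51% of genes over 100 CPM. Of the 253 lower noncoding genes, 132 overlap a protein-coding gene, and 12 (4.74%) overlap one that was itself lower, against 0.63% of the noncoding genes that were not shared, and counting by strand is not given in the sources used here. *D5Ertd615e*, a lincRNA of unknown role, was among the higher ones at 0.425 to 0.929 against 1.89 to 3.01 CPM (1.82 ± 0.20). Among coding members, the median GC content of transcripts was 46.2% in the higher and 52.8% in the lower genes, against 49.6% over all genes, and the median exon length was 4919, 3611, and 4545 bases.

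Promoter sequence, which the choice of genes did not use, is described here without a test. RefSeq promoters were matched for 278 of the 365 higher and 317 of the 427 lower coding genes, giving 326 and 431 windows of 300 bases. CHR was present in 29.8% of the higher, 12.3% of the lower, and 12.1% of all 12544 windows of tested coding genes, and in 67.2% of the 64 windows of the mitosis genes. The CCAAT box was present in 47.6%, 34.3%, and 38.0%, and in 68.8% of the mitosis windows. The E2F form TTTCGCG was present in 3.68%, 0.70%, and 1.68%. Most of the muscle motifs were more frequent in the lower genes, but the CArG box was in 2.45% of the higher (8 windows), 2.09% of the lower (9 windows), and 1.35% of all windows. In shared genes past all 4 pairwise comparisons, the CArG box was in 0.81% of the higher and 2.54% of the lower windows. In the 58 windows of lower sarcomere and triad genes, the CArG box was in 6.90% (4 windows). The E-box CAGCTG was in 14.4% of the higher, 26.0% of the lower, and 15.8% of all windows, and in 39.7% of the 58 windows of lower sarcomere and triad genes. MEF2 was in 1.84%, 6.73%, and 1.28%, and in 17.2% of the sarcomere and triad windows. The TEAD site was in 27.6% of those windows against 12.3% of all, and TATAAA, which can lie inside a MEF2 site, in 27.6% against 7.33%. The interferon element ISRE (GAAA, any 2 bases, GAAA) was in 7.36% of the higher and 2.99% of all windows. It was in 4.88% of the windows of higher genes past all 4 pairwise comparisons. The median GC content of the windows was 58.3% in the higher, 56.7% in the lower, and 60.7% in all tested genes, and its part in these shares was not tested. Every motif was searched on both strands, and a match is a run of letters, not a site of binding.

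**Figure D5:**
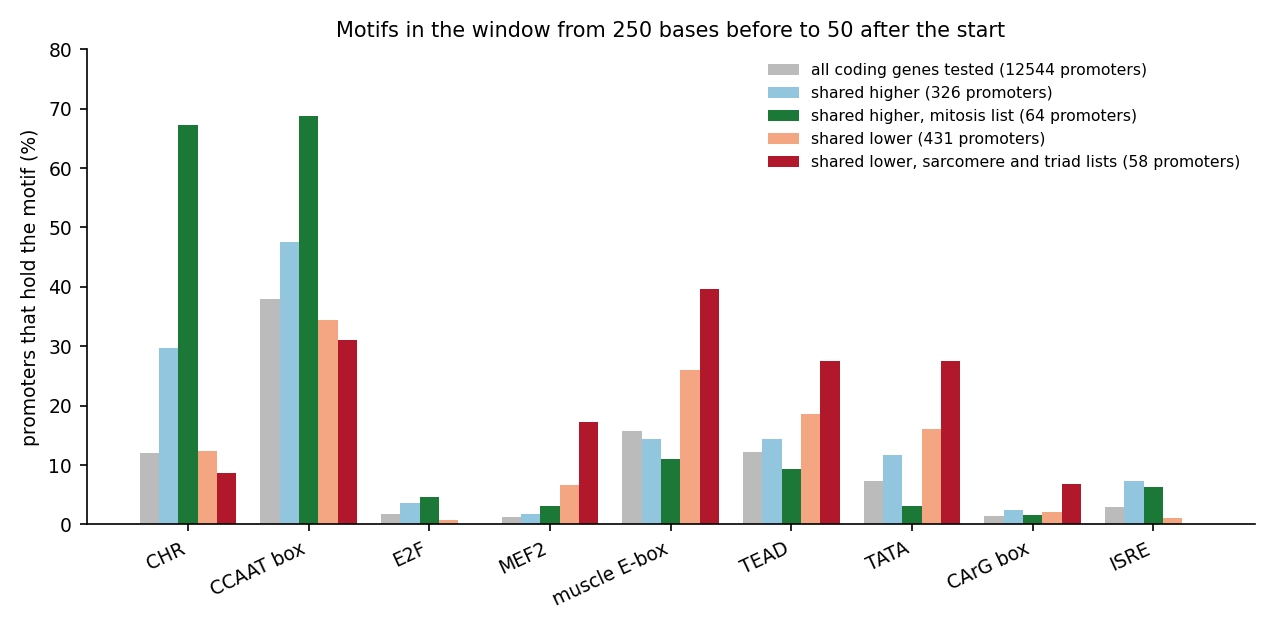
Percentage of promoter windows that hold each motif, for all tested coding genes, the higher and lower shared-response genes, the higher mitosis genes, and the lower sarcomere and triad genes. CHR and CCAAT bars are highest for the mitosis genes (67.2% and 68.8%), and MEF2, E-box, TEAD, TATA, and CArG box bars are highest for the sarcomere and triad genes.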

How the data were processed

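RNA-seq was done on 12 samples of C2C12GFP cells (4 groups, 3 samples each). Per the labels, the authors' processing used FastQC, Trimmomatic, HISAT2, featureCounts, and DESeq2, and each deposited value is a whole-number read count of a gene, not normalized. Versions, genome build, annotation, strand setting, and the treatment of multi-mapping reads are not given in the sources used here. All 55536 gene IDs match GENCODE M21 (GRCm38), from which names, biotypes, and exon overlaps were taken. Promoters were from RefSeq (GRCm38.p6).

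Groups came from the sample titles. Genes were kept by filterByExpr (minimum count 10, minimum total 15), which left 14499 of 29301 genes with a count. Counts were scaled by TMM and fitted with edgeR 4.0.16 (R 4.3.3) by its quasi-likelihood test with 4 groups and no block (8 residual degrees of freedom), and p-values were adjusted by Benjamini-Hochberg over all genes tested. CPM of single genes are scaled by TMM, whereas the summed CPM of marker and gene lists are shares of the total count without that scaling. Fitted log2 fold changes use edgeR's default prior count, and a fold against a group at or under 3 counts in each library is a bound at 3 counts per library, which covers counting error only. Fibronectin against Geltrex™ and Collagen I against control were tested; the contrast that chose the genes was described only.

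Named genes were the 10 highest and 10 lowest coding genes of the shared response with a mean of at least 1 CPM and non-overlapping libraries, up to 5 members of each gene list with the largest change, all members of the myosin heavy chain, troponin, myogenic factor, integrin, and E2F lists, the 6 highest and 6 lowest for fibronectin over Geltrex™, up to 5 in each direction for Collagen I over control, the genes next to the fold threshold, and the 4 highest and 4 lowest noncoding genes. Members, the 59 gene lists, and rules were chosen with earlier results of these data known. The fit was tested on simulated counts. Alternatives were DESeq2 1.42.0, RLE scaling, other filters and fold thresholds, other definitions of a shared gene, the replicate number as a block, Geltrex™ summed into 1 library, a single reference group, and leaving out each library. The result of 1 named gene is not reported here.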

Additional observations from a re-analysis of the deposited data

Results flagged for a closer look

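In 12 shared-response genes the difference between fibronectin and Geltrex™ was itself past an adjusted p of 0.05 (edgeR's quasi-likelihood test) and among the 6 largest in its direction. The log2 values are fibronectin over Geltrex™. On the Geltrex™ side were *C3* (−8.11), the antiviral genes *Oas2* (−7.57, with fibronectin at or under 3 counts, so that the fitted value depends on the prior count) and *Ifit1* (−5.11), the stress factor *Atf3* (−3.77), *Phf11d* (−3.48), and the GTPase gene *Gbp7* (−3.47). Fibronectin lay within 1 log2 unit of the mean of the references in these genes except *Oas2*. On the fibronectin side, *Bcat1* (1.81) was higher on fibronectin, and the others were lower than the references on both coatings but less so on fibronectin. They were *2810410L24Rik* (2.03), *AI480526* (1.79, 66.6% of its exonic bases overlapping *4932422M17Rik* on the other strand), *Nos1* (1.62), *Cilp*, a cartilage matrix gene (1.60), and *Scel* (1.52). With Geltrex™ summed into 1 library, *Scel* (adjusted p = 0.176) and *AI480526* (adjusted p = 0.0513) were no longer past the threshold.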

How the results depend on the processing

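Counts in this paragraph are genes at an adjusted p of at most 0.05 and, unless another minimum is named, a fold change of at least 2. The contrast called 1148 genes and the shared response held 1102, with 1152 and 1100 by DESeq2 and 1146 and 1099 by RLE scaling, of which 1084 and 1090 were among the 1102. With at least 10 counts in every sample the contrast called 619, the shared response held 604 (292 higher and 312 lower, against 422 and 680), and fibronectin against Geltrex™ called 361 (577 before). With Geltrex™ summed into 1 library, fibronectin against Geltrex™ called 357 and Collagen I against control 10 (19 before), and without the filter on low counts the latter called 43. With no fold minimum the counts were 7147, 6331, 2805, and 162 for the contrast, the shared response, and the 2 tested comparisons, and at a minimum of 2 log2 units the first 2 were 177 and 166. Requiring all 4 pairwise comparisons left 656 shared genes, and requiring non-overlapping libraries left 717. Leaving out 1 library gave 1096 to 1270, 1044 to 1217, 489 to 668, and 10 to 25, the last with 12 without Collagen I replicate 1 and 10 without Collagen I replicate 2. Between Collagen I and control, 23 shared-response genes were called with no fold minimum, 64 by DESeq2, and 4 to 36 when 1 library was left out. Replicate numbers did not pair the samples (mean correlation of deviations 0.01 for same numbers), and with the replicate block the shared response held 1102 genes, 1087 of them the same. No named gene or count with a value under these alternatives reversed, but with at least 10 counts in every sample some of the 235 named genes were not tested (192 kept their call and 1 gained one). Low counts limit the lower genes most, since 335 of 680 had a mean under 1 CPM.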

Other observations

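Reads on the histone cluster genes made up 0.00847% to 0.0101% of each fibronectin and Geltrex™ library and 0.0129% to 0.0171% of each control and Collagen I library, so that the groups did not overlap and the order was opposite to that of the mitosis and DNA replication genes in the same libraries. Histone transcripts mostly lack a poly(A) tail, and their capture was not tested. Among shared-response genes of signaling outside the lists led by cell cycle and muscle, *Fst*, follistatin, which binds activin and myostatin, was at 92.7 to 112 CPM in the reference libraries and 45.3 to 58 CPM in the coated ones, *Igfbp4*, an IGF-binding protein, at 16 to 21.4 and 6.28 to 11.5 CPM, and *Egln3*, a prolyl hydroxylase of the hypoxia response, at 118 to 189 and 62.6 to 77.5 CPM. The groups did not overlap in these 3 genes. *Prkag3*, the muscle-specific γ subunit of AMP-activated kinase, was at 19.6 to 25.1 and 5.32 to 9.74 CPM, with lower values on fibronectin than on Geltrex™ (log2 difference −0.67, adjusted p = 0.00157, edgeR's quasi-likelihood test).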
